A study of Mus musculus with 38 samples.

Results

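The first day of JGES reprogramming with BMP4 was compared with the same day without it, across the genes of 1 library a side. The 34578 genes described here are those of the 35976 listed genes that remained after 1398 short RNAs (microRNAs, small nucleolar RNAs and other short transcripts) were left out. Of them, 13201 reached 1 FPKM (fragments per kilobase of transcript, scaled to the mapped total of each library) in at least 1 of the 2 libraries and were compared, and 21377 stayed below it in both. The starting cells were mouse embryonic fibroblasts (MEFs) taken at E13.5 from crosses of OG2 mice, which carry an Oct4-GFP reporter on a CBA/CaJ×C57BL/6J background, with 129S4/SvJaeJ mice. All cells of both libraries had been exposed for 2 days to retroviruses carrying Jdp2, Glis1, Esrrb and Sall4 (together JGES) and were then kept in iCD3 medium, which holds CHIR99021, an inhibitor of GSK3, SGC0946, an inhibitor of DOT1L, GSK-LSD1, an inhibitor of LSD1, and Y27632, mLIF, bFGF, vitamin C and a component labelled TV. The BMP4+ cells received BMP4 at 10 ng/ml in addition, and the BMP4− cells did not. The sample at day 0 stands before BMP4, and the later libraries of days 3, 5 and 7 continue both arms, again with 1 library each. The comparison asks which genes differ 1 day into BMP4 treatment, and how they stand later and in other factor sets. With 1 library a side there is no replicate and no test, and no difference here can be set against the spread between cultures.

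BMP4 is a secreted morphogen of the TGF-beta superfamily. It binds pairs of type I and type II serine/threonine kinase receptors, which phosphorylate SMAD1, SMAD5 and SMAD9, and these enter the nucleus with SMAD4 and bind regulatory DNA. The best known early targets are the Id genes, which encode inhibitors of basic helix-loop-helix factors, and the inhibitory SMADs and secreted antagonists that dampen the signal. In fibroblasts and bone precursors BMP signals favour skeletal fates, and in the early embryo they act on mesoderm, trophoblast and extra-embryonic tissues.

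Both day 1 libraries were alike in depth as far as the deposited values show it. Among genes with a single RefSeq transcript, FPKM multiplied by transcript length fell on regular steps. The most frequent value within a preset range was taken as 1 read. It was 325 in the BMP4− library and 350 in the BMP4+ library, and a smaller step below that range was not sought. Between 1 and 10 such steps, 75.5% of 1749 genes in the first library and 77.1% of 1671 genes in the second lay within 0.05 of a whole step. The read numbers given below are estimated from this step and the mean length of a gene's RefSeq transcripts. They stand for counting error only, and the 2 reads of a pair are not independent. The labelled cell type was checked against 8 fibroblast markers. All 8 were at 1 FPKM or above, and their summed level was 314 FPKM without and 382 FPKM with BMP4, against 1367 FPKM at day 0. Fewer cells of a type and less RNA per cell cannot be told apart in such bulk values.

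Most genes were close to the diagonal at day 1. The median difference of log2(FPKM + 1), BMP4+ minus BMP4−, was −0.02 over the 13201 genes, and 10459 of them (79.2%) differed by less than 1.5-fold on this scale. A gene was called when it differed by 2-fold or more on the same scale, which understates the change of low genes. By this rule 414 genes were higher with BMP4, 3.14% of those compared, and 664 were lower, 5.03%. A 4-fold difference was reached by 33 of the higher and 67 of the lower genes. Low levels carried many of the calls. Between 1 and 5 FPKM, where the median gene rested on about 17.5 and 16.0 reads, 5.96% of 4480 genes were higher and 8.46% lower. At 20 FPKM or above, where the median gene rested on about 309 and 279 reads, these shares were 1.41% and 2.15% of 3628 genes. Of the higher genes, 128 were listed at 0 in the BMP4− library, and of the lower genes 213 were listed at 0 in the BMP4+ library.

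**Figure D1:**
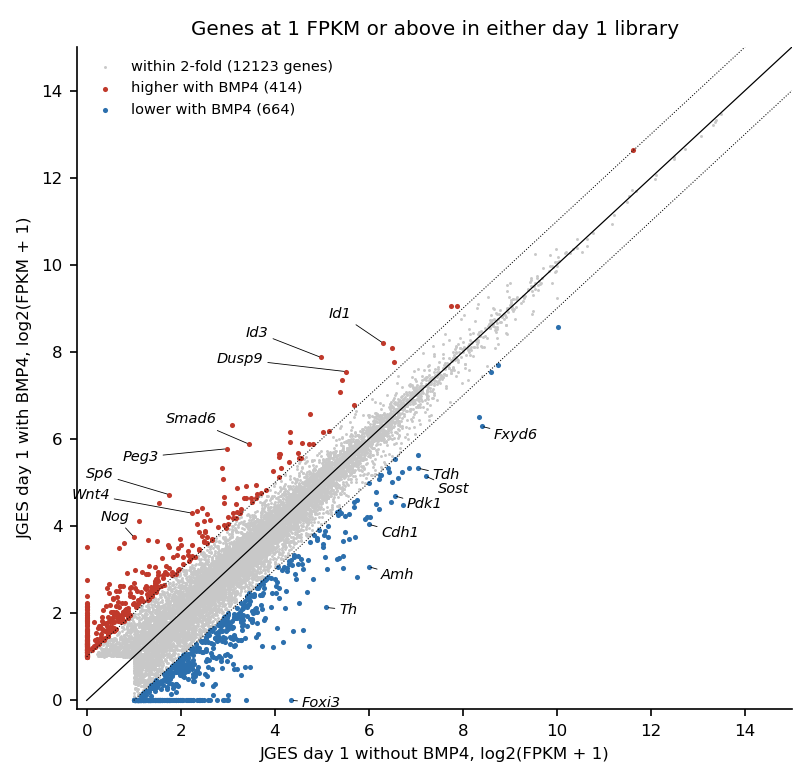
Each point is 1 of 13201 genes, with log2(FPKM + 1) in the BMP4− library of day 1 on the x axis and in the BMP4+ library on the y axis. The dotted lines mark a 2-fold difference, the 414 higher genes are red and the 664 lower genes blue, and Id1, Id3, Smad6 and Nog stand above the diagonal while Foxi3, Th, Amh and Cdh1 stand below it.

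Most of the listed targets of BMP signalling were higher with BMP4. The list was written with earlier results of these data known. Of 20 BMP target and feedback genes, 18 were compared, and 11 of these were called higher and 1 lower, where 3.14% and 5.03% of all genes were, with a median difference of 1.34 against −0.02 over all genes. With a pseudocount of 5 FPKM the median of the list was 0.78, and Gata3, Msx2 and Smad9 no longer reached 2-fold. The 2 others, Dlx5 and Tmem100, stayed below 1 FPKM in both libraries. All 4 Id genes were among the called. Id3 had 30.7 FPKM without and 233 FPKM with BMP4, about 90 and 636 reads, and had been at 168 FPKM at day 0. Id1 was at 78.1 and 293 FPKM, a difference of 1.89, after 135 FPKM at day 0. Id4 was at 6.46 and 33.1 FPKM and Id2, the smallest of the 4 differences at 1.10, at 50.3 and 109 FPKM. For Id1, Id3 and Id4 the order was the same: the BMP4− library of day 1 was lowest, day 0 lay between, and the BMP4+ library was highest.

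The inhibitory SMADs, which block receptor activation in a feedback loop, followed. Smad6 stood at 9.96 FPKM in the BMP4− and 58.0 FPKM in the BMP4+ library, about 88 and 474 reads, a difference of 2.43. Smad7 was at 9.43 and 29.5 FPKM, a difference of 1.55. The transcription factor genes Atoh8 (4.49 and 20.2 FPKM), Gata2 (16.6 and 39.0 FPKM), Gata3 (0.92 and 5.08 FPKM) and Msx2 (0.60 and 4.69 FPKM) were also called higher. Smad9, the gene of a receptor-activated SMAD, was listed at 0 without BMP4 and at 1.84 FPKM with it. Bambi, a pseudoreceptor, was higher by 0.75 and was not called, and Hey1, Msx1, Dlx3, Zfp423 and Runx2 lay between −0.16 and 0.32. Sost, which encodes the WNT and BMP antagonist sclerostin, went the other way, with 147 FPKM without and 34.5 FPKM with BMP4, a difference of −2.06. It had been at 29.6 FPKM at day 0.

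The promoters of 3 Id genes and of Smad6, 4 of the called BMP target and feedback genes, are shown so that the sequence in front of the start site stands beside their values. Each is 300 bases long, from 250 before to 50 after the start, on the gene's own strand, from RefSeq on GRCm38.p6 (mm10). Capitals mark 2 motifs that SMAD proteins are known to bind, GGCGCC, bound by SMAD1 and SMAD5, and GTCT or its reverse complement AGAC, bound by SMAD3 and SMAD4. The motifs were searched on both strands, and they cannot overlap each other.
Id3, chr4:136143572-136143871, plus strand: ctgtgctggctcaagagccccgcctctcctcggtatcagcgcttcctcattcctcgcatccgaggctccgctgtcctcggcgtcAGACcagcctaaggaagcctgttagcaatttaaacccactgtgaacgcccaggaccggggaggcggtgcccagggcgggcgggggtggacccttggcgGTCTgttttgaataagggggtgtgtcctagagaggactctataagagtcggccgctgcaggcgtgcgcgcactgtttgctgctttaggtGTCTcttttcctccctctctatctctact
Smad6, chr9:64022010-64022309, minus strand: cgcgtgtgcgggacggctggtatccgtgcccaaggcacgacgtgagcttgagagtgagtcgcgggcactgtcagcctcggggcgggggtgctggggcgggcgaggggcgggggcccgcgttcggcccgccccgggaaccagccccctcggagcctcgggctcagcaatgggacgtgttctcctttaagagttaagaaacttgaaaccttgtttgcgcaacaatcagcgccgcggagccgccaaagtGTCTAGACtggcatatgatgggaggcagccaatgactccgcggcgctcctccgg
Id2, chr12:25096043-25096342, minus strand: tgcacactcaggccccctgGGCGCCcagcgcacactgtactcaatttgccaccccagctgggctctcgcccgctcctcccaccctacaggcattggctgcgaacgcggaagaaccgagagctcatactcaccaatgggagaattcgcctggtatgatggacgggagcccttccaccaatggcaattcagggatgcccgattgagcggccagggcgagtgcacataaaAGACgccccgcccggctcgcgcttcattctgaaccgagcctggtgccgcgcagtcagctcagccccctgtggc
Id4, chr13:48260866-48261165, plus strand: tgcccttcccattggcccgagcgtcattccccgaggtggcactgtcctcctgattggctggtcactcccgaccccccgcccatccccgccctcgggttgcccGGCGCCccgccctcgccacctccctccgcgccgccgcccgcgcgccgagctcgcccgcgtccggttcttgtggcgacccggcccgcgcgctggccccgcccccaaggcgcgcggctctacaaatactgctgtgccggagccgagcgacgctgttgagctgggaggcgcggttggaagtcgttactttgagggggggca
The Id3 window held 3 GTCT matches and no GGCGCC. The Smad6 window held 2 GTCT matches that lie back to back as the palindrome GTCTAGAC at position -4 from the start, and no GGCGCC. Id2 and Id4 each held 1 GGCGCC, at positions -231 and -148, and Id2 also 1 GTCT. Among the 13 tested BMP target and feedback genes with a promoter in the RefSeq table, 5 (38.5%) held GGCGCC and 10 (76.9%) held GTCT. Over the 9782 compared genes with a promoter there, these shares were 24.7% and 87.8%. For genes called higher at day 1 they were 21.4% and 88.7% of 266, and for genes called lower 17.7% and 88.6% of 430. The palindrome, which was looked at after it had been seen in Smad6, was in 26 (0.266%) of the 9782 promoters, in 3 of the 266 of the called higher genes (1.13%), namely Smad6 itself, Runx3 and Aspg, and in 1 of the 430 of the called lower genes (0.233%). A match of letters is a description and not a site.

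The secreted antagonists and the ligands of the pathway differed one by one. Of 15 BMP antagonists, 11 were compared, 2 were called higher and none lower, with a median of −0.02. Nog, whose product noggin binds BMP4 directly, had 1.01 FPKM without and 12.4 FPKM with BMP4, about 6 and 68 reads. Fstl1 was at 66.3 and 120 FPKM, a difference of 0.85, while Grem1 (18.6 and 10.8 FPKM) and Dand5 (7.35 and 3.96 FPKM) had differences of −0.73 and −0.75 and were not called. Chrd, Fst, Fstl3, Nbl1, Twsg1 and Bmper lay between −0.41 and 0.43. Of 16 BMP ligand genes, 11 were compared. Bmp8a was called higher, at 0.27 and 3.20 FPKM, and 3 were called lower, against 3.14% and 5.03% of all genes, and of these 4 calls that of Bmp7 alone stayed with a pseudocount of 5 FPKM. Bmp7 had 8.76 FPKM without and 1.62 FPKM with BMP4, about 99 and 17 reads, and Bmp6 at 4.55 and 1.17 FPKM. Gdf5 had 2.38 FPKM in the BMP4− library and was listed at 0 in the BMP4+ library. The cells' own Bmp4 transcript was alike in both libraries, at 29.1 and 29.6 FPKM, as were Bmp1 and Bmp2 with differences of 0.06 and 0.19.

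None of the 9 compared BMP receptor and coreceptor genes was called. Over all genes 3.14% were called higher and 5.03% lower, so lists as small as this one and the next would hold few calls at those shares. Bmpr1a, a type I receptor, was at 14.8 and 17.7 FPKM and Bmpr2, the type II receptor, at 10.7 and 12.4 FPKM. The largest difference in this list was that of Acvrl1, a type I receptor known from endothelium, at 4.72 and 9.05 FPKM or 0.81. Bmpr1b was below 1 FPKM in both. None of the 11 genes listed as SMADs and SMAD regulators was called either. That list leaves out Smad6, Smad7 and Smad9, which were called higher and were counted among the target and feedback genes. Smad1 was at 4.17 and 5.56 FPKM, Smad5 at 16.1 and 12.9 FPKM and Smad4, the common partner, at 11.1 and 11.6 FPKM. The ubiquitin ligase gene Smurf1 (4.03 and 6.83 FPKM) and Smad3 (4.12 and 6.82 FPKM) had the largest differences of this list, 0.64 and 0.61.

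**Figure D2:**
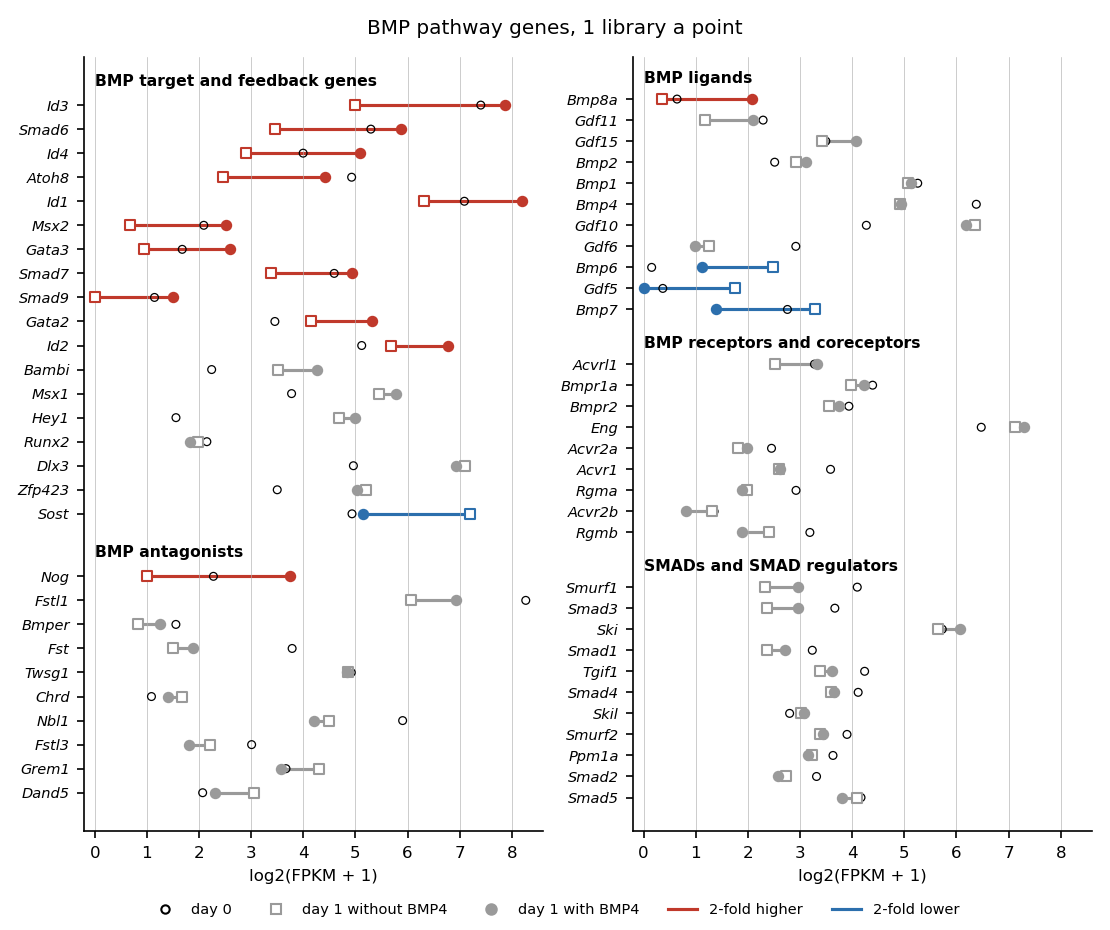
Each row is 1 of the genes shown from the BMP lists and the x axis is log2(FPKM + 1), with the day 0 library as an open circle, day 1 without BMP4 as an open square and day 1 with BMP4 as a filled circle. Red marks the genes higher by 2-fold or more and blue those lower, and the red rows gather among the target and feedback genes, 11 of 18. Smad6, Smad7 and Smad9 are among these red rows. The short lists of receptors and of the other SMADs and SMAD regulators hold no coloured row.

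Of 15 compared genes of the related TGF-beta and activin branch, 3 were higher and 2 lower, where 3.14% and 5.03% of all genes were, and the median was −0.07. Tgfb1 had 34.8 FPKM without and 72.2 FPKM with BMP4. Tgfbi was at 0.61 and 2.74 FPKM. Inhbb, an activin subunit, was at 38.9 and 8.55 FPKM, about 509 and 104 reads. Nodal was listed at 0 at day 0 and had 5.43 FPKM without and 1.00 FPKM with BMP4 at day 1. Other members of the branch, such as Tgfbr1, Tgfbr2, Tgfb2 and Tgfb3, lay between −0.36 and −0.01.

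Beyond the pathway, the 15 largest differences in each direction were taken among genes at 5 FPKM or above in either library, without predicted gene models. Among the 15 largest upward differences were 5 genes of the BMP and WNT lists, Id3, Nog, Smad6, Id4 and Wnt4. The largest was that of Peg3os, at 7.51 FPKM without and 78.4 FPKM with BMP4, and the overlapping imprinted zinc finger gene Peg3 on chromosome 7 had 6.89 and 53.8 FPKM, about 192 and 1392 reads. The 2 genes overlap, and how the counting treated strand is not given in the sources used here, so their reads cannot be told apart. Both had been high at day 0, at 156 and 107 FPKM. Peg10, another imprinted gene, was at 215 and 535 FPKM.

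Several other upward differences were in transcription and signalling genes. Sp6, a zinc finger factor gene of the Sp family, had 2.39 FPKM without and 25.4 FPKM with BMP4, about 26 and 254 reads, a difference of 2.96. It overlaps the predicted gene Gm11532. Wnt4, a secreted WNT ligand, was at 3.74 and 18.7 FPKM. Dusp9, a phosphatase that acts on ERK, was at 44.9 and 186 FPKM, about 374 and 1440 reads, after 14.3 FPKM at day 0. Tlx3, a homeobox gene, was at 1.48 and 11.9 FPKM. The remaining genes of the 15 were Fbxo2 (0.73 and 11.3 FPKM), Stk32a (0.60 and 10.3 FPKM), H3f3c (1.17 and 16.4 FPKM), Snrpc (6.40 and 39.1 FPKM) and Aqp11, which was listed at 0 without BMP4 and at 5.82 FPKM with it. H3f3c and Snrpc belong to families with near-identical copies, so their values depend on how shared reads were split.

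The 15 largest downward differences were in genes that were low at day 0. All 15 were at 8.26 FPKM or less at day 0 and 8 of them below 1 FPKM. They were selected by a higher level at day 1 without BMP4, so a lower level at day 0 follows in part from the selection. Foxi3, a forkhead gene of ectodermal placodes, was listed at 0 at day 0, was at 19.4 FPKM (about 72 reads) at day 1 without BMP4, and was listed at 0 with BMP4. Foxd4, another forkhead gene, showed the same with 6.93 FPKM. Th, the rate-limiting enzyme of catecholamine synthesis, was at 0, 33.3 and 3.38 FPKM at day 0, day 1 without and day 1 with BMP4. Amh, which encodes anti-Müllerian hormone of the TGF-beta superfamily, was at 3.46, 63.0 and 7.39 FPKM, about 330 and 36 reads at day 1. Jsrp1, its neighbour on chromosome 10, was at 2.55, 17.03 and 1.55 FPKM. Cyp17a1, an enzyme of steroid synthesis, was listed at 0 with BMP4 after 5.82 FPKM without.

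The other named genes of this group have differing roles. Mylk2, the skeletal muscle myosin light chain kinase, was at 25.5 and 1.38 FPKM. Rspo1, a secreted enhancer of WNT signalling, was at 23.3 and 2.06 FPKM, a difference of −2.99. Gal, a neuropeptide gene, was at 19.98 and 2.00 FPKM, and Hpca, a neuronal calcium sensor, at 10.2 and 0.69 FPKM. Dtx1, an E3 ligase of the Notch pathway, was at 6.99 and 0.09 FPKM. Krt7 (14.5 and 1.32 FPKM) and the lipocalin gene Apod (8.77 and 0.51 FPKM) closed the list together with Hist1h2ab, at 7.08 FPKM without and listed at 0 with BMP4. Hist1h2ab is one of a family of near-identical histone genes.

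Of 20 epithelial genes, 13 were compared, 5 were called lower and none higher, where 5.03% of all genes were called lower, and the median was −0.85. Cdh1, the E-cadherin gene, was at 10.8 FPKM at day 0 and at 63.0 FPKM without and 15.5 FPKM with BMP4 at day 1, about 859 and 196 reads. Cldn4, a tight junction gene, was at 0.74, 40.3 and 8.69 FPKM. Epcam was at 2.36 FPKM without BMP4 and listed at 0 at day 0 and with BMP4. Pkp1 was at 4.10 and 1.35 FPKM, and Krt7 has been given above. The simple keratins Krt18 (41.8 and 58.7 FPKM) and Krt19 (163 and 281 FPKM) were on the other side, with differences of 0.48 and 0.78 that were not called. The summed level of the list was 386 FPKM without and 404 FPKM with BMP4. Its median was −1.54 and −0.43 with pseudocounts of 0.1 and 5 FPKM. With 5 FPKM, Epcam and Pkp1 no longer reached 2-fold.

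Of 17 compared fibroblast surface and transcription factor genes, 3 were called higher and none lower, where 3.14% of all genes were called higher, and the median was 0.40 against −0.02 over all genes. These were Thy1 (31.5 and 71.0 FPKM, after 73.5 FPKM at day 0), Snai2 (4.68 and 11.6 FPKM) and Foxf1 (3.75 and 8.94 FPKM). Of 18 matrix genes 1 was higher and 1 lower, where 3.14% and 5.03% of all genes were, with a median of −0.08. Fn1, the fibronectin gene, was at 708 FPKM at day 0, 233 FPKM without and 532 FPKM with BMP4. Col6a2 was at 20.3 and 9.11 FPKM. The main collagens were alike, Col1a1 at 72.7 and 67.8 FPKM and Col1a2 at 98.1 and 120 FPKM, both far below the 524 and 553 FPKM of day 0. None of 11 contractile genes was called, and Acta2 was at 983 FPKM at day 0 and at 23.8 and 22.8 FPKM at day 1. Of 10 bone and cartilage genes 2 were higher, Alpl (0.81 and 3.28 FPKM) and Mgp (0.54 and 3.50 FPKM), and all 10 lay above 0, with a median of 0.50. With a pseudocount of 5 FPKM, Alpl, Mgp, Snai2, Foxf1 and Col6a2 no longer reached 2-fold.

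Pluripotency genes and genes of the primitive endoderm (PrE), an extra-embryonic lineage of the blastocyst, were for the most part low in both libraries. Of 20 pluripotency genes, 10 stayed below 1 FPKM in both. Among the 10 compared, 3 were called lower and none higher, where 5.03% of all genes were called lower, with a median of −0.60 that became 0.20 when no filter on low values was set. Tdh, the threonine dehydrogenase of pluripotent cells, was at 0.18 FPKM at day 0 and at 131 FPKM without and 39.2 FPKM with BMP4, about 759 and 211 reads. The other two rested on few reads, Dppa5a on 3 and Utf1 on 4 without BMP4, and both were listed at 0 with BMP4 and at day 0. Sox2 was at 5.85 FPKM at day 0 and at 59.5 and 30.8 FPKM at day 1, a difference of −0.93 just short of the rule, on about 452 and 217 reads. Klf5 lay on the other side, at 23.7 and 45.3 FPKM or 0.91. Pou5f1, which encodes OCT4, is not in the list, so the counts and the median above leave it out. It was looked at after its values had been seen, since its promoter drives the GFP reporter. Pou5f1 was at 0.93 FPKM at day 0 and at 9.004 and 3.39 FPKM at day 1, a difference of −1.19 that meets the rule. Of 12 PrE genes, 10 were compared with a median of 0.00, and Gata4 and Sox17 were below 1 FPKM in both libraries. Eva1a was called lower, at 10.46 and 2.64 FPKM. Gata6 was at 4.81 and 4.02 FPKM, Foxa2 at 0.96 and 1.48 FPKM, and Pth1r had the largest upward difference, 0.80, on about 1 and 7 reads.

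The delivered factors were measured together with the cells' own copies, since reads of both are listed under the same symbols. Sall4 had 712 FPKM without and 468 FPKM with BMP4, Esrrb at 480 and 348 FPKM and Jdp2 at 947 and 762 FPKM. All 3 were lower with BMP4, with differences of −0.60, −0.46 and −0.31, and none was called. Glis1 stayed below 1 FPKM in both, at 0.17 and 0.75 FPKM, and was at 0.45 FPKM at day 0, so the listed values do not show this factor in either library. The part of the difference in factor level in any other result was not tested.

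Genes of 4 other signalling lists were read against the 3.14% of all genes called higher and the 5.03% called lower. Of 17 WNT genes and targets 2 were called higher, Wnt4 and Dkk1, a secreted WNT inhibitor (2.03 and 8.57 FPKM). The median of the list was 0.58, and 0.14 over its 15 members with at least 20 estimated reads in either library. Axin2, a common readout of WNT signalling, was at 29.4 and 20.2 FPKM, and Sp5 at 18.7 and 16.3 FPKM. Of 13 Notch genes 3 were called lower, the target genes Hes5 (15.6 and 5.60 FPKM) and Heyl (3.15 and 0.93 FPKM) and the modifier Lfng (41.5 and 18.8 FPKM), and 11 of the 13 lay below 0, with a median of −0.30. None of the 3 reached 2-fold with a pseudocount of 5 FPKM. Hes1 was alike at 72.3 and 72.0 FPKM. Of 13 FGF and ERK feedback genes, Fgfr2 was called higher (2.54 and 6.30 FPKM) and Fgf7 lower (1.09 FPKM without, listed at 0 with BMP4), with a median of 0.01. Dkk1, Fgfr2 and Fgf7 also no longer reached 2-fold with a pseudocount of 5 FPKM. Of 14 AP-1 and immediate early genes 2 were lower, Egr1 (84.5 and 39.5 FPKM, about 799 and 347 reads) and Egr3 (6.66 and 1.52 FPKM, not called with a pseudocount of 5 FPKM), with a median of −0.44, while Junb and Jund differed by 0.37 and 0.39.

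Of 12 compared hypoxia and glycolysis genes, 3 were called lower and none higher, where 5.03% of all genes were called lower. Their median was −0.43, and −0.14 over the 10 at 5 FPKM or above. Pdk1, the kinase that shuts off pyruvate dehydrogenase, was at 2.402 FPKM at day 0 and at 92.6 and 24.9 FPKM at day 1, about 1362 and 340 reads. Egln3, an oxygen sensor, was at 46.9 and 12.02 FPKM, and Ndrg1 at 2.81 and 0.73 FPKM. Glycolytic enzymes of the same list such as Aldoa, Pgk1 and Eno1 lay between −0.07 and 0.18. Of 17 cytokine and inflammation genes 3 were higher, against 3.14% of all genes, namely Vcam1 (4.21 and 13.5 FPKM), Csf1 (27.2 and 57.8 FPKM) and Il11 (5.30 and 11.8 FPKM), and Lcn2 was lower (29.7 and 13.9 FPKM). With a pseudocount of 5 FPKM, Csf1, Il11 and Lcn2 no longer reached 2-fold. No gene was called in 6 further lists. These were the 26 cell cycle genes, which lay between −0.39 (Ccnb2) and 0.50 (Ccne2), the 25 compared HOX genes (Hoxa3 at −0.80 and Hoxb6 at 0.82 were the extremes), the 15 senescence and p53 genes (Trp53inp1 at −0.38, Fas at 0.86), the 15 interferon-stimulated genes (Oasl2 at −0.86, Ifi44 at 0.84), the 15 cholesterol synthesis genes (Insig1 at −0.23, Cyp51 at 0.37) and the 13 unfolded protein and amino acid stress genes (Herpud1 at −0.35, Sesn2 at 0.35). The 14 NuRD subunits, partners of SALL4, also held no called gene, with Rbbp7 lowest at −0.40 and Mta3 highest at 0.58.

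**Figure D3:**
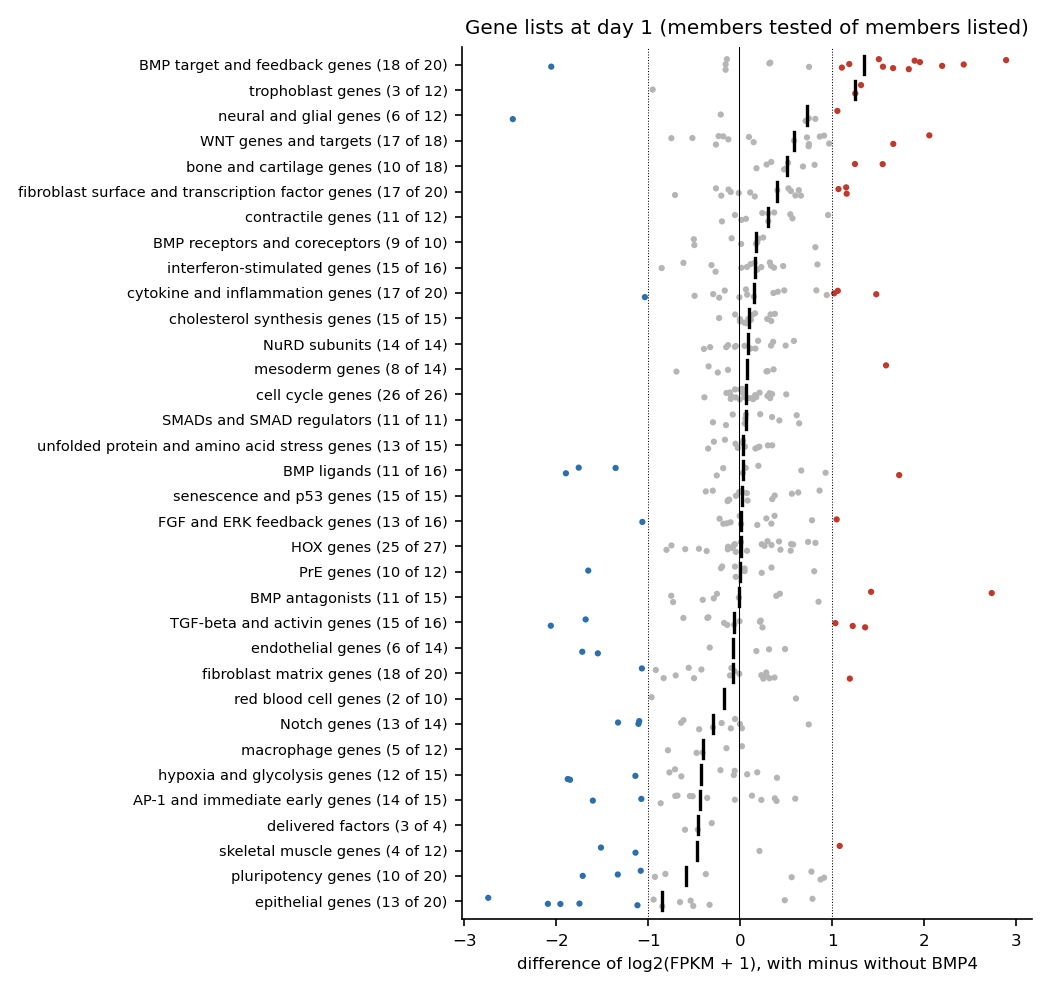
Each row is a gene list, each point a compared member with its difference of log2(FPKM + 1), BMP4+ minus BMP4−, on the x axis, and the black bar the median of the list. Red and blue mark members past the dotted 2-fold lines, and the lists are ordered by median, from the BMP target and feedback genes (1.34) to the epithelial genes (−0.85). The order at both ends changed with a filter of 5 FPKM.

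Markers of other cells that a fibroblast preparation can hold were read as summed levels, and those of 5 of the 6 cell types stayed below 30 FPKM in both libraries. The 10 macrophage markers summed to 12.5 FPKM without and 9.56 FPKM with BMP4, with Fcer1g and Tyrobp at 0 in both libraries. The 8 endothelial markers summed to 7.92 and 9.65 FPKM, the 7 skeletal muscle markers to 11.6 and 17.5 FPKM with Myod1 and Myog at 0, and the 6 neural and glial markers to 9.72 and 4.93 FPKM. The 4 red blood cell markers summed to 29.7 and 15.1 FPKM, with Hbb-bt at 0 in both. The 6 epithelial markers were not low. They summed to 133 FPKM without and 92.1 FPKM with BMP4, after 32.2 FPKM at day 0, with 5 of 6 at 1 FPKM or above and Krt14 at 0, while the sum of the fuller epithelial list was 386 and 404 FPKM. Within the fuller lists, Sox10, a neural crest factor gene, was at 0.25 FPKM at day 0 and at 8.14 and 0.64 FPKM at day 1, a difference of −2.47. Of 6 compared endothelial genes, Cldn5 (2.29 FPKM, then listed at 0) and Esam (5.23 and 1.13 FPKM) were called lower. Of 4 compared skeletal muscle genes, Acta1 (1.86 FPKM, then listed at 0) and Tnnt1 (1.71 and 0.23 FPKM) were called lower and Tnnt3 (7.66 and 17.3 FPKM) higher. Snap25 (0.12 and 1.33 FPKM, about 1 and 8 reads) was the 1 neural gene called higher, of 6 compared. Over all genes 3.14% were called higher and 5.03% lower, and these lists are small. Cldn5, Esam, Acta1, Tnnt1, Tnnt3 and Snap25 no longer reached 2-fold with a pseudocount of 5 FPKM. No macrophage or red blood cell gene was called, C1qa and Hba-a1 having differences of −0.79 and −0.97. Of 12 trophoblast genes only 3 were compared, which is too few to set against the 3.14% of all genes called higher. Eomes (3.15 and 8.85 FPKM, not called with a pseudocount of 5 FPKM) and Peg10 were called higher, and Plac1 had a difference of −0.95. Of 8 compared mesoderm genes Tbx3 was called higher, at 15.9 and 49.7 FPKM.

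The genes called at day 1 were then followed in the libraries of days 3, 5 and 7, which share no sample with the day 1 comparison. At day 3, 128 of the 414 higher genes (30.9%) were again higher by 2-fold or more, against 4.82% of all 13201 genes, and 31 (7.49%) were lower by as much. Their median differences at days 3, 5 and 7 were 0.46, 0.19 and 0.18, against −0.08, −0.14 and −0.09 over all genes. At days 5 and 7, 30.7% and 30.7% of them were higher by 2-fold or more, against 6.86% and 7.73% of all genes. Past 2-fold in the opposite direction were 10.9% of the higher genes at day 5 and 11.8% at day 7, against 9.25% and 8.83% of all genes. For the genes called lower at day 1, at day 3, 227 of 664 (34.2%) were again lower by 2-fold or more, against 6.29% of all genes, and at days 5 and 7 these shares were 20.9% and 20.6%, against 9.25% and 8.83%. Their medians were −0.54, −0.21 and −0.13. Past 2-fold in the opposite direction were 5.57%, 7.23% and 10.8% of them at days 3, 5 and 7, against 4.82%, 6.86% and 7.73% of all genes. Genes past 2-fold in the same direction at all 4 days numbered 71 of the 414 higher (17.1%) and 54 of the 664 lower (8.13%), where 1.77% and 1.49% of all genes were past it at days 3, 5 and 7. The called genes are on the whole lower in level than all genes, and low genes pass 2-fold more often.

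**Figure D4:**
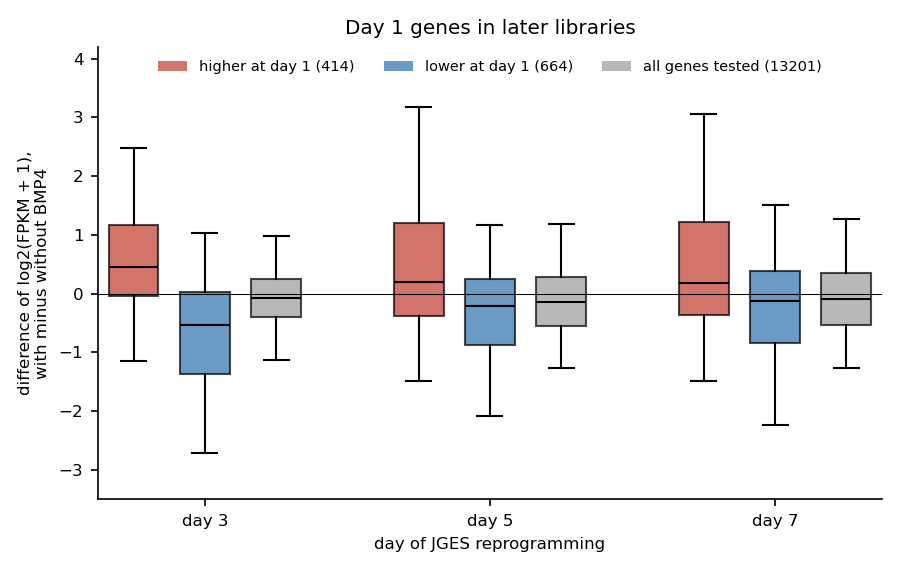
The boxes show the differences of log2(FPKM + 1), BMP4+ minus BMP4−, at days 3, 5 and 7 for the genes called higher or lower at day 1 and for all genes compared, with the median, the quartiles and whiskers from the 5th to the 95th percentile. The red medians lie above the grey ones at all 3 days, and the blue median is lowest at day 3, at −0.54.

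The named genes fell into distinct courses. Smad6 kept its difference, with 2.43, 2.63 and 2.69 at days 1, 3 and 5, and stood at 9.27 FPKM without and 53.2 FPKM with BMP4 at day 7. Id1 (1.89, 1.77, 1.67 and 1.87) and Smad7 (1.55, 1.61, 1.69 and 1.55) were as even. Id3 had 2.89, 1.72, 0.91 and 1.25. Wnt4 went from 2.05 at day 1 to 4.67 at day 3 and 3.70 at day 7, Sp6 from 2.96 to 3.73 and 4.15, and Dkk1 from 1.66 to 3.60 and 4.26. Nog was past 2-fold at day 1 alone, with 2.73 and then 0.49, 0.57 and −0.17. Of the 15 largest downward differences, 13 were past 2-fold again at day 3, 7 at day 5 and 4 at day 7. Foxi3 had −2.11 at day 3 and 0.46 at day 5, Th −3.92 and −1.21, and Amh −3.23 and −0.17. Dtx1 and Hpca were past 2-fold at every day. Cdh1 had −1.96, −2.04, −0.86 and −0.65. Pou5f1 had −1.19, −4.68, −5.54 and −5.03. Sox2 went from −0.93 to −2.31 at day 3 and −3.42 at day 7, and Nanog, at 2.22 and 1.48 FPKM at day 1, from −0.38 to −3.52 and −4.45.

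**Figure D5:**
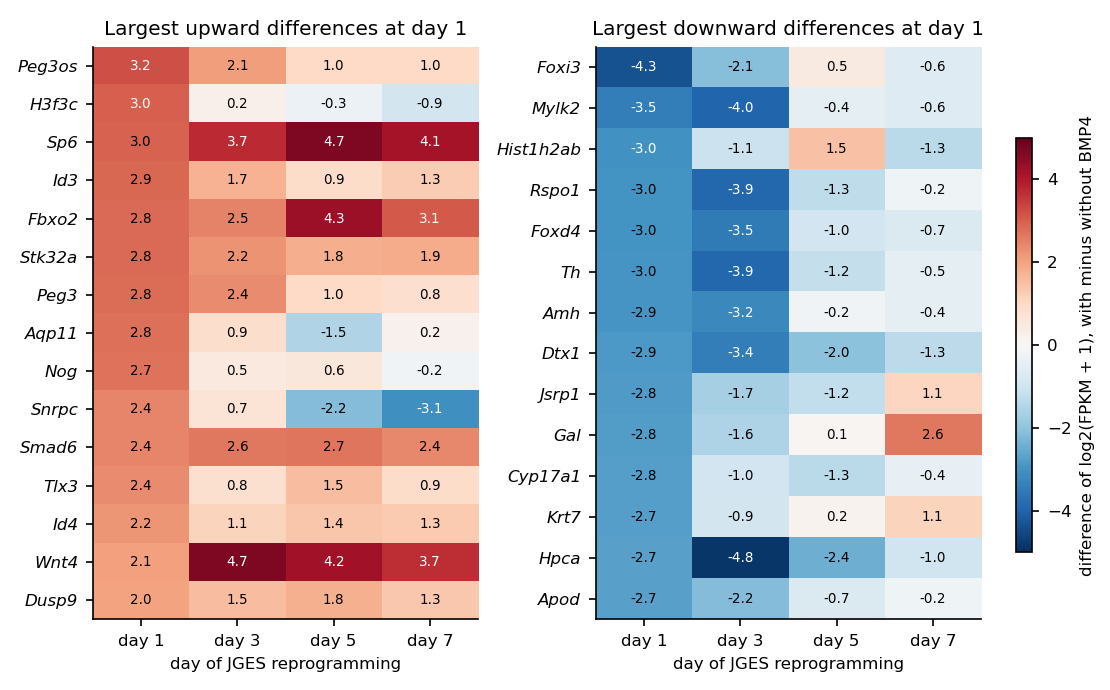
Each cell gives the difference of log2(FPKM + 1), BMP4+ minus BMP4−, of genes among the 15 largest upward (left) and downward (right) differences of day 1 at days 1, 3, 5 and 7, with red for higher and blue for lower. Sp6, Fbxo2, Stk32a, Smad6, Id4, Wnt4 and Dusp9 stay past 2-fold at all days, while Dtx1 and Hpca stay past it at all days among the downward genes. A gene listed at 0 enters as 0, so that the day 1 values of Aqp11, Foxi3, Foxd4, Hist1h2ab and Cyp17a1 rest on the pseudocount.

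What the called genes do without BMP4 was read from the libraries of day 0 and day 3 without BMP4, neither of which enters the day 1 comparison. The 664 genes lower with BMP4 at day 1 were at a median of 1.03 FPKM at day 0 and 3.43 FPKM at day 3, a median difference of 0.74, against 0.14 over all genes. Of them, 281 (42.3%) were higher by 2-fold or more at day 3 than at day 0 and 60 (9.04%) lower, against 13.0% and 8.98% of all genes. The 414 genes higher with BMP4 had a median difference of 0.00, with 79 (19.1%) higher and 84 (20.3%) lower. The day 0 level was below 1 FPKM for 49.4% of the lower and 41.5% of the higher genes, against 11.4% of all genes. The 664 genes were selected by a higher day 1 level in the same arm without BMP4, and 213 of them were listed at 0 with BMP4. A low day 0 level and a rise to day 3 follow in part from that selection. What goes beyond it was not tested.

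At day 7 the same genes were read in cells with other factor sets, JGE (without Sall4), JGEO (with Oct4 in place of Sall4) and JGESO (all 5 factors), each with 1 library with and 1 without BMP4. Of the 414 genes, 75 (18.1%) were higher by 2-fold or more with BMP4 in JGE, 27 (6.52%) in JGEO and 45 (10.9%) in JGESO, against 2.88%, 1.13% and 3.49% of all genes. Of the 664 genes, 55 (8.28%), 24 (3.61%) and 43 (6.48%) were lower, against 3.21%, 0.848% and 1.71%. The opposite direction was also more frequent than over all genes. In the same order, 4.67%, 2.71% and 4.82% of the 664 genes were higher by 2-fold or more, against 2.88%, 1.13% and 3.49%. Of the 414 genes, 3.38%, 1.21% and 2.9% were lower by as much, against 3.21%, 0.848% and 1.71%. These last shares rest on 14, 5 and 12 genes, and that in JGE was near the share of all genes. Sp6 was higher by 2.49 in JGE and 2.47 in JGESO and by 0.45 in JGEO, and Smad6 by 1.23, 0.44 and 0.31 in the same order. Dusp9 was higher by 3.09 in JGE and by 0.77 in JGEO, and had −0.37 in JGESO. Day and factor set differ at once here, so these values stand beside those of day 1 and are not a test of Sall4.

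Open chromatin at the start site in MEFs was listed for a smaller share of the called genes than of all genes. Of the genes with a promoter in the RefSeq table, 205 of 266 higher genes (77.1%) and 314 of 430 lower genes (73.0%) had an ATAC-seq peak of MEFs within 2 kb of a start, against 9132 of 9782 compared genes (93.4%). The share differed by level. Among genes at 1 to 5 FPKM it was 74.7% for the higher, 63.3% for the lower and 85.8% for all genes. At 5 to 20 FPKM it was 76.2%, 86.6% and 96.5%, and at 20 FPKM or above 93.1%, 85.4% and 97.8%. All 13 BMP target and feedback genes with a promoter had such a peak. Smad6, Id4 and Gata3 had a peak over the start itself. Among the lower genes, Th had none within 2 kb, while Foxi3 had one although it was listed at 0 at day 0.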

How the data were processed

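Bulk RNA-seq libraries of JGES cells at day 1 with and without BMP4 (10 ng/ml) were compared, 1 library each. Per the labels the authors trimmed reads with Trim Galore 0.6.4, mapped them to mm10 with HISAT2 2.2.1 and computed FPKM with StringTie 2.2.1, and they deposited FPKM per gene symbol. FPKM is scaled to the mapped total of each library, so a few abundant genes can shift the rest. The score of the MEF ATAC-seq peaks is that of the deposited MACS list, which holds 125470 peaks, and it was used only to locate peaks. Here a difference is log2(FPKM + 1) with minus without BMP4 (Python 3.11.15, numpy 2.4.6, pandas 2.3.3, figures with matplotlib 3.10.9). Genes at 1 FPKM or above in either library were compared, and 2-fold was called. Short RNAs were left out by name, by RefSeq type or by a gene length under 200 bases. With 1 library a side no test was run. The calling rule was run on simulated reads of genes at 5 FPKM or above without BMP4, with counting error only. The simulation does not cover lower genes or the spread between cultures.

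Named genes are the 15 largest differences each way among genes at 5 FPKM or above in either library without predicted models (5 and 3 models lay beyond the last named ones), the compared members of the BMP lists, and in other lists the called members and those with the largest differences. The members and the 34 lists were chosen with earlier results of these data known. Day 7 JGES columns of the second table are rescaled copies of the first (0% of genes past 2-fold), so they show no spread between cultures. Other factor sets were compared within their own table. Columns of other cells in the tables were not used here. RefSeq (GRCm38.p6) gave promoters for 9782 of the 13201 compared genes. Alternatives were the pseudocount, the filter, the scaling, the fold and the short transcripts. A few genes that the rules name are counted but not reported here.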

Additional observations from a re-analysis of the deposited data

Results flagged for a closer look

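Among the 15 largest differences each way at day 1, 4 genes were past 2-fold in the opposite direction at day 7. Over all genes called at day 1 this held for 11.8% of the higher and 10.8% of the lower genes. The difference between the days was not tested, as each rests on 1 library a side. Snrpc was higher with BMP4 by 2.44 at day 1 and lower at day 7, with a difference of −3.05. Gal was lower at day 1 (−2.81) and higher by 2.64 at day 7. Krt7 (−2.74 at day 1) was higher by 1.13 and Jsrp1 (−2.82 at day 1) by 1.06 at day 7.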

How the results depend on the processing

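With 1 library a side nothing here measures the spread between cultures, and the read numbers are approximate. The count of called genes depends on the low genes. Against 414 higher and 664 lower genes, a pseudocount of 0.1 FPKM gave 792 and 1098 and one of 5 FPKM gave 58 and 110. Genes at 5 FPKM or above gave 147 and 285, a fold of 1.5 gave 1149 and 1593, and a fold of 4 gave 33 and 67. With at least 20 estimated reads in either library, an alternative chosen after seeing the data, the counts were 174 and 307. Scaling to a median ratio of 1 gave 428 and 652, and leaving out short transcripts 409 and 658. The lower genes outnumbered the higher ones under each of these settings. The median of the BMP target and feedback genes was 0.78 with a pseudocount of 5 FPKM and 1.14 without a filter. That of the epithelial genes was −1.54 and −0.43 with pseudocounts of 0.1 and 5 FPKM, −0.54 for genes at 5 FPKM or above and −0.60 without a filter. That of the pluripotency genes was −0.21 with a pseudocount of 5 FPKM, −0.93 for genes at 5 FPKM or above, −0.19 with the read minimum and 0.20 without a filter, so its direction rests on the filter. At 5 FPKM or above the trophoblast list (1.28) stood above the BMP targets (1.18), and the pluripotency list below the epithelial one. The median of the trophoblast genes, 1.25 over 3 genes, was −0.29 over 7 genes without a filter. The median of the WNT genes, 0.58, was 0.20 with a pseudocount of 5 FPKM, 0.36 without a filter and 0.14 with the read minimum. That of the hypoxia and glycolysis genes, −0.43, was −0.21 with a pseudocount of 5 FPKM, −0.14 for genes at 5 FPKM or above and −0.22 with the read minimum, and that of the Notch genes, −0.30, was −0.62 for genes at 5 FPKM or above. Of 131 named differences, 38 no longer reached 2-fold with a pseudocount of 5 FPKM, among them Gata3, Msx2, Smad9, Bmp6, Bmp8a, Gdf5, Nodal, Tgfb1, Tgfbi, Dkk1, Fgfr2, Fgf7, Hes5, Heyl, Lfng, Egr3, Eomes, Epcam, Pkp1 and Ndrg1, Gdf11 reached it with 0.1 FPKM, and none changed sign. No paired analysis was possible because day 1 has 1 library a condition, and the libraries of other days are not replicates of it.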
